A study of Homo sapiens with 6 samples.

Results

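The host genes of small nucleolar RNAs (snoRNAs) were read across A549 cells grown in the hydrogels AlgLung and S-AlgLung. Members were the rows of the count table whose symbol was SNHG followed by a number, or GAS5, ZFAS1, EPB41L4A-AS1 or DANCR. This gave 32 of 62703 genes, and 28 of them passed the filter on low counts and were tested among 18544 genes. SNHG18, SNHG26, SNHG27 and SNHG31 had 11, 41, 1 and 5 counts over all 6 libraries and were not tested. A549 is a single established human lung adenocarcinoma line, maintained in serum-containing medium, and RNA was sequenced from 3 libraries for each hydrogel. No other treatment separates the groups in the labels, which give neither the composition of the gels nor the time in culture. The series title speaks of sulfation of the extracellular matrix, and the labels do not define the S. Nor do they tell if each replicate came from its own culture, and the p-values therefore cover the spread among these libraries alone, which may be technical.

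A snoRNA guides the chemical modification of ribosomal or spliceosomal RNA. C/D box snoRNAs guide 2′-O-methylation and H/ACA box snoRNAs guide pseudouridylation, while the related small Cajal body RNAs act on spliceosomal RNA. Most are cut out of introns, and the spliced host RNA left behind often codes for no protein. Many such hosts start with a 5′ terminal oligopyrimidine (TOP) tract, a C followed by a run of C and T, as the messages for ribosomal proteins do. TOP hosts are made at a high rate, engage ribosomes on short reading frames and are broken down by nonsense-mediated decay, so that host RNA levels move with growth state and with translation. GAS5 was found as a transcript that accumulates in growth-arrested cells, and several SNHG genes are studied in lung cancer.

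The starts of the host RNAs are shown because they divide the members into those with a TOP tract and those without. A start was scored as TOP-type where the first base was C and at least 4 more C or T followed. Each line gives the first 30 bases of a GENCODE 29 transcript (GRCh38), with the tract in capitals. Where any transcript of a gene had such a start, one of those was chosen: GAS5 had it in 6 of 29 listed transcripts, SNHG5 in 3 of 23 and SNHG1 in 1 of 25.
GAS5 (chr1:173867960-173867989, minus strand): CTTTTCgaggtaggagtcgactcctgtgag
ZFAS1 (chr20:49278642-49278671, plus strand): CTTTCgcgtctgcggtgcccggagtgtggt
SNHG12 (chr1:28581844-28581873, minus strand): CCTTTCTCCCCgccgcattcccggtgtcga
SNHG1 (chr11:62855450-62855479, minus strand): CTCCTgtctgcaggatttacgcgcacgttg
SNHG5 (chr6:85678704-85678733, minus strand): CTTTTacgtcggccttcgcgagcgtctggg
SNHG3 (chr1:28506043-28506072, plus strand): CCTTTTTggagacagattcgcagtggtcgc
SNHG16 (chr17:76557769-76557798, plus strand): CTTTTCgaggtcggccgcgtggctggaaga
SNHG10 (chr14:95534771-95534800, minus strand): atcagggtcacgcttgcagggcaacgagag
DANCR (chr4:52712404-52712433, plus strand): agagtcttcccgggattggctgcgggcctc
SNHG17 (chr20:38435304-38435333, minus strand): gcctcagtccttcgccgtccctcgccgtcc
EPB41L4A-AS1 (chr5:112160526-112160555, plus strand): tgtcgggtcccaaaatacgtggtctaaagt
The upper 7 carry a tract of 5 to 11 bases and the lower 4 have none. GAS5 and SNHG16 share the same first bases. SNHG32, formerly C6orf48, had no TOP-type start in GENCODE 29 but had one at the start given by RefSeq (GRCh38.p14), shown with the 50 bases before it. SNHG1 had none at its RefSeq start, shown the same way. Its GENCODE start above lies inside the gene, downstream of the RefSeq start and between the guides SNORD25 and SNORD26.
SNHG32 (chr6:31834866-31834965, plus strand): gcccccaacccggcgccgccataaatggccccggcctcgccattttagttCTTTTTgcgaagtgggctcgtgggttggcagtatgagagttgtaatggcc
SNHG1 (chr11:62855836-62855935, minus strand): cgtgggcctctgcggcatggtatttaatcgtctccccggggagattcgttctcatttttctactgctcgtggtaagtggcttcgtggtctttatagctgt

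The guides that the hosts release are shown for 4 hosts whose snoRNA reads are given further on. In the C/D box guides the capitals mark box C (TGATGA) and box D (CTGA), and in the H/ACA guide they mark the ACA box near the 3′ end.
SNORD25 in SNHG1 (chr11:62855564-62855632, minus strand): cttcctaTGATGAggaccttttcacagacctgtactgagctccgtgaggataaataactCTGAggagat
SNORD12C in ZFAS1 (chr20:49278940-49279028, plus strand): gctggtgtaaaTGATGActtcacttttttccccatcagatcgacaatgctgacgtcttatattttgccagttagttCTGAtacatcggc
SNORD48 in SNHG32 (chr6:31835263-31835326, plus strand): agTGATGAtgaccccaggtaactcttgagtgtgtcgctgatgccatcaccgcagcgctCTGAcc
SNORA17A in SNHG7 (chr9:136726747-136726879, minus strand): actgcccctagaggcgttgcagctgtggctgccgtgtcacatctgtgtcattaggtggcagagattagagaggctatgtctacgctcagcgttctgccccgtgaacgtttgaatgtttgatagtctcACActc
Guides inside the hosts were found by gene symbol. Of the 32 members, 30 held at least 1 row with a snoRNA or small Cajal body RNA symbol on their own strand. SNHG14, the imprinted host on chromosome 15, held 84 of them, SNHG1 held 7 and SNHG17 held 5. SNHG12 held 4, where SNORA16A, listed more than once at the same place, is counted singly. No row with such a symbol was found within GAS5 and SNHG28. Many rows carry no symbol, so this does not show that they hold no guides, and their guides were not analysed here.

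Total counts were 22978408 to 26495444 per library. S-AlgLung replicate 3 stood apart from the other libraries: the members took 0.210% of its counts against 0.0786% to 0.0985% in the other 5. It had counts for 28413 genes against 25729 to 26007, and the nuclear RNAs MALAT1 and NEAT1 took 0.0264% of its counts against at most 0.00736%. Ribosomal protein genes took 6.20% of its counts against 4.42% to 5.68%. Mitochondrial genes took 4.59%, within the 3.61% to 5.39% of the others. What these differences of 1 library contribute to the results below was not tested. All 9 airway epithelial markers had counts, led by KRT8 and AKR1B10. EPCAM was low, at 34 to 152 counts a library. Of other cell types, PTPRC and CD3E (leukocytes) had 5 and 2 counts in all libraries, DCN (fibroblasts) 1, and VWF and KDR (endothelium) 5 and 1. Other genes of these lists had more, with 6644 for CD14, 140 for LYZ, 648 for COL3A1, 440 for COL1A1, 274 for PECAM1 and 177 for CDH5.

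Host gene expression was first compared between the 2 hydrogels. GAS5, ZFAS1, SNHG12, SNHG32 and SNHG1 rose in S-AlgLung, by 1.91-fold to 3.82-fold, and no member fell. These 5 of 28 tested members were called at an adjusted p under 0.05 (edgeR's quasi-likelihood test, Benjamini-Hochberg over all genes), against 3.15% of all tested genes called higher and 1.99% called lower. At an unadjusted p under 0.05 there were 16 higher and 1 lower members, against 9.10% and 5.81% of all genes. DESeq2 called 4 higher and 0 lower and limma-voom 3 and 0. The share of all genes called was not taken with these tools, here or below. The median log2 fold change of the members was 0.61 against 0.03 over all genes, and 22 of 28 were above 0. In 9 members all 3 S-AlgLung values lay above all 3 AlgLung values, against 10.4% of all genes. In 1, SNHG22, all lay below, against 8.05%. Values are given as CPM, counts per 1e6 counts of a library after TMM scaling, which sets the bulk of genes equal between libraries.

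GAS5 (ENSG00000234741, chr1:173858559-173868882, minus strand) was at 27.8, 37.2 and 31.9 CPM in AlgLung replicates 1 to 3 and at 71.2, 106 and 192 CPM in S-AlgLung. Every S-AlgLung library was above every AlgLung library, and S-AlgLung replicate 3 was the highest. The mean went from 32.3 ± 4.73 to 123 ± 62.4 CPM (SD, n = 3). This was a log2 fold change of 1.93, with SE 0.28 and adjusted p = 4.101e-05 by edgeR. Without S-AlgLung replicate 3 it was 1.43 (adjusted p = 9.926e-10), and the call held in all 15 alternative settings, over 1.43 to 2.21. The antisense gene GAS5-AS1 was at 1.95, 1.80 and 1.82 CPM in AlgLung and at 4.31, 5.24 and 13.6 CPM in S-AlgLung, and also rose (log2 fold change 2.06, SE 0.34, adjusted p = 1.830e-04). No source used here gives the strand setting of the counting, so reads in the 132 exon bases that GAS5 and GAS5-AS1 share cannot be told apart. GAS5-AS1 had 738 counts over all libraries, 0.0624 times those of GAS5.

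ZFAS1 (ENSG00000177410, chr20:49278178-49299600, plus strand), which starts beside the gene ZNFX1 and hosts the SNORD12 family, was at 35.3, 62.5 and 52.6 CPM in AlgLung and at 83.0, 91.3 and 166 CPM in S-AlgLung. Its groups did not overlap, and S-AlgLung replicate 3 was again the highest. It rose from 50.1 ± 13.7 to 114 ± 46.0 CPM (SD, n = 3), or by 1.18 ± 0.27 (SE) on the log2 scale (adjusted p = 0.00607). The call held without S-AlgLung replicate 3 (0.77, adjusted p = 0.00492) and was lost without AlgLung replicate 1 (0.93, adjusted p = 0.130). ZNFX1, on the other strand with 249 shared exon bases and a similar total, had a log2 fold change of 0.02. A pair of unnamed genes on the same strand, ENSG00000274760 and ENSG00000277967, had 0.781 and 0.808 times the counts of ZFAS1 and the same log2 fold change of 1.18, and their values are not independent of it.

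SNHG32 (ENSG00000204387, chr6:31834608-31839766, plus strand), the host of SNORD48 and SNORD52 in the major histocompatibility region, was at 36.8, 48.0 and 44.4 CPM in AlgLung and at 72.8, 61.1 and 113 CPM in S-AlgLung. All S-AlgLung values lay above all AlgLung values. Its log2 fold change was 0.93 (SE 0.24, adjusted p = 0.0176). With S-AlgLung replicate 3 left out it was 0.60 (adjusted p = 0.0418). The call was lost without AlgLung replicate 1, 2 or 3 (adjusted p = 0.199, 0.0832 and 0.121, at 0.78, 1.02 and 0.90) and with total counts (0.88, adjusted p = 0.0594). ENSG00000285565, which shares 418 exon bases on the same strand and had 1.19 times its counts, had a log2 fold change of 0.66 (adjusted p = 0.127).

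SNHG1 and SNHG12 passed the test with all libraries and did not pass it without S-AlgLung replicate 3. SNHG1 (ENSG00000255717, chr11:62851978-62855953, minus strand), first known as the U22 host gene, was at 6.32, 8.63 and 8.28 CPM in AlgLung and at 12.6, 8.82 and 31.3 CPM in S-AlgLung. S-AlgLung replicate 2 was barely above the highest AlgLung library. Its log2 fold change was 1.19 (SE 0.31, adjusted p = 0.0182), and 0.43 (adjusted p = 0.266) once S-AlgLung replicate 3 was left out. The call was also lost without AlgLung replicate 1 (0.998, adjusted p = 0.179) or AlgLung replicate 2 (1.27, adjusted p = 0.133), and with total counts (adjusted p = 0.0785) or limma-voom (adjusted p = 0.0950). SNHG12 (ENSG00000197989, chr1:28578538-28583132, minus strand), which holds H/ACA and C/D guides, was at 1.46, 0.854 and 0.621 CPM in AlgLung and at 2.31, 1.10 and 7.07 CPM in S-AlgLung. Its groups overlapped, since S-AlgLung replicate 2 lay below AlgLung replicate 1. Its log2 fold change of 1.84 (SE 0.46, adjusted p = 0.0137) was 0.75 without S-AlgLung replicate 3 (adjusted p = 0.257) and 1.75 without AlgLung replicate 2 (adjusted p = 0.177). It also missed the threshold with total counts (adjusted p = 0.0502), DESeq2 (adjusted p = 0.251) and limma-voom (adjusted p = 0.120).

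**Figure D1:**
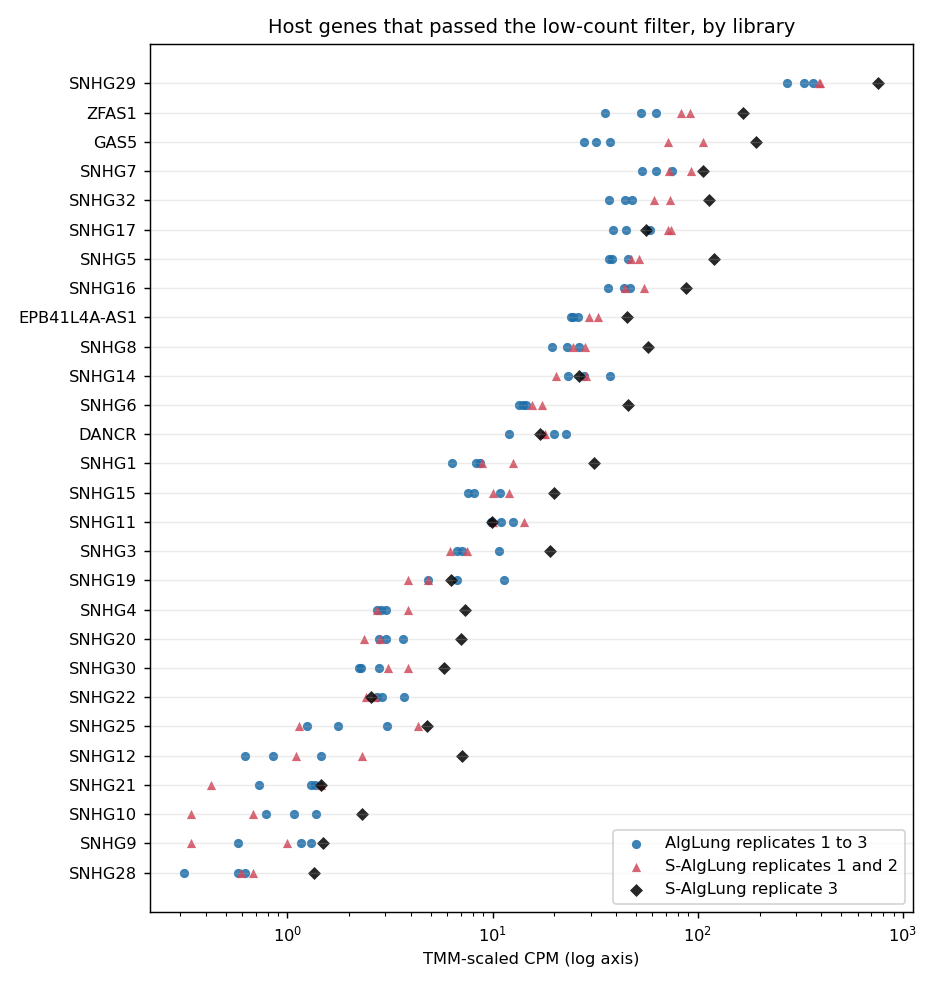
Level of the 28 tested host genes in each library as TMM-scaled CPM on a log axis, with AlgLung replicates as blue circles, S-AlgLung replicates 1 and 2 as red triangles and S-AlgLung replicate 3 as black diamonds. Genes are ordered by level. The black diamond is the rightmost point in 22 genes; for GAS5, ZFAS1 and SNHG32 the red triangles also lie to the right of every blue circle.

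Without S-AlgLung replicate 3, edgeR called 4 members higher and 1 lower, against 4.75% and 3.53% of 18760 genes. The 4 were GAS5, ZFAS1, SNHG32 and SNHG17, and the lower member was SNHG19. The median log2 fold change of the members was then 0.23 against -0.04 over all genes, and 19 of 28 were above 0. In 10 members both remaining S-AlgLung libraries lay above all 3 AlgLung libraries, against 19.1% of all genes. SNHG17, which holds H/ACA guides on chromosome 20, was at 38.5, 58.6 and 44.5 CPM in AlgLung and at 74.0, 71.8 and 55.6 CPM in S-AlgLung. Among those 10 members it was the one with replicate 3 below the other S-AlgLung libraries. Its log2 fold change was 0.51 (SE 0.23, adjusted p = 0.276) with all libraries and 0.60 without S-AlgLung replicate 3 (adjusted p = 0.0462). SNHG19 was at 4.83, 11.4 and 6.66 CPM in AlgLung and at 4.85, 3.88 and 6.25 CPM in S-AlgLung. Its log2 fold change went from -0.60 (SE 0.28, adjusted p = 0.313) to -0.83 (adjusted p = 0.0186).

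Of the abundant hosts that did not pass the test, most had their highest value in S-AlgLung replicate 3. SNHG29, the host of SNORD49A, SNORD49B and SNORD65, was at 273, 364 and 328 CPM in AlgLung and at 389, 395 and 758 CPM in S-AlgLung. Its groups did not overlap, and its log2 fold change was 0.68 ± 0.28 (SE, adjusted p = 0.217). With S-AlgLung replicate 3 left out it was 0.25 (adjusted p = 0.563). SNHG5, formerly the U50 host gene, was at 37.0, 45.5 and 38.1 CPM in AlgLung and at 47.2, 51.9 and 119.9 CPM in S-AlgLung (0.86, SE 0.27, adjusted p = 0.0686). SNHG6 was at 13.5, 14.5 and 14.0 CPM and at 15.5, 17.4 and 45.7 CPM (0.91, SE 0.29, adjusted p = 0.0647). In both, S-AlgLung replicates 1 and 2 lay just above AlgLung and replicate 3 well above all. Both passed the test without S-AlgLung replicate 1 (adjusted p = 0.0324 for SNHG5 and 0.0236 for SNHG6) or without S-AlgLung replicate 2 (adjusted p = 0.00830 and 0.00258). With S-AlgLung replicate 3 left out instead, the log2 fold changes were 0.27 (adjusted p = 0.4798) for SNHG5 and 0.20 (adjusted p = 0.635) for SNHG6. SNHG16, which hosts C/D guides, was at 36.3, 46.8 and 43.6 CPM in AlgLung and at 54.5, 43.9 and 87.4 CPM in S-AlgLung (0.55, adjusted p = 0.2596). SNHG8 was at 23.2, 26.4 and 19.5 CPM and at 28.2, 24.7 and 56.9 CPM (0.67, adjusted p = 0.163). SNHG7, which holds SNORA17A and SNORA17B, was at 62.7, 75.2 and 53.2 CPM and at 92.9, 72.5 and 105.9 CPM (0.50, adjusted p = 0.297). These 3 had overlapping groups, with S-AlgLung replicate 2 inside the AlgLung range in each, and without replicate 3 their log2 fold changes were 0.19 in SNHG16, 0.17 in SNHG8 and 0.34 in SNHG7. DIPK1B, on the strand opposite SNHG7 with 1482 shared exon bases and 0.368 times its counts, was called higher (0.80, adjusted p = 0.0266).

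EPB41L4A-AS1 and DANCR were the other genes chosen by name. EPB41L4A-AS1 (ENSG00000224032), an antisense host of an H/ACA guide, was at 26.1, 24.6 and 24.0 CPM in AlgLung and at 29.6, 32.8 and 44.9 CPM in S-AlgLung. Its groups did not overlap, and its log2 fold change was 0.52 ± 0.22 (SE, adjusted p = 0.218), or 0.29 without S-AlgLung replicate 3 (adjusted p = 0.438). EPB41L4A, the gene on the other strand with 2200 shared exon bases, had a log2 fold change of -0.39 (adjusted p = 0.384). DANCR (ENSG00000226950), reported to hold epidermal progenitors undifferentiated, was at 12.1, 22.7 and 19.8 CPM in AlgLung and at 17.5, 18.1 and 16.9 CPM in S-AlgLung. The S-AlgLung values all fell inside the AlgLung range, and the log2 fold change was -0.05 (SE 0.23, adjusted p = 0.962). The remaining tested members had log2 fold changes from -0.28 in SNHG22 to 0.81 in SNHG30 and did not pass the test. Per kilobase of exon model, the most abundant host was SNHG29 (35.9 CPM per kb in AlgLung and 57.4 in S-AlgLung), followed by SNHG32 (23.9 and 45.7). GAS5 went from 6.55 to 24.99 CPM per kb, and DANCR was at 1.79 and 1.72.

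**Figure D2:**
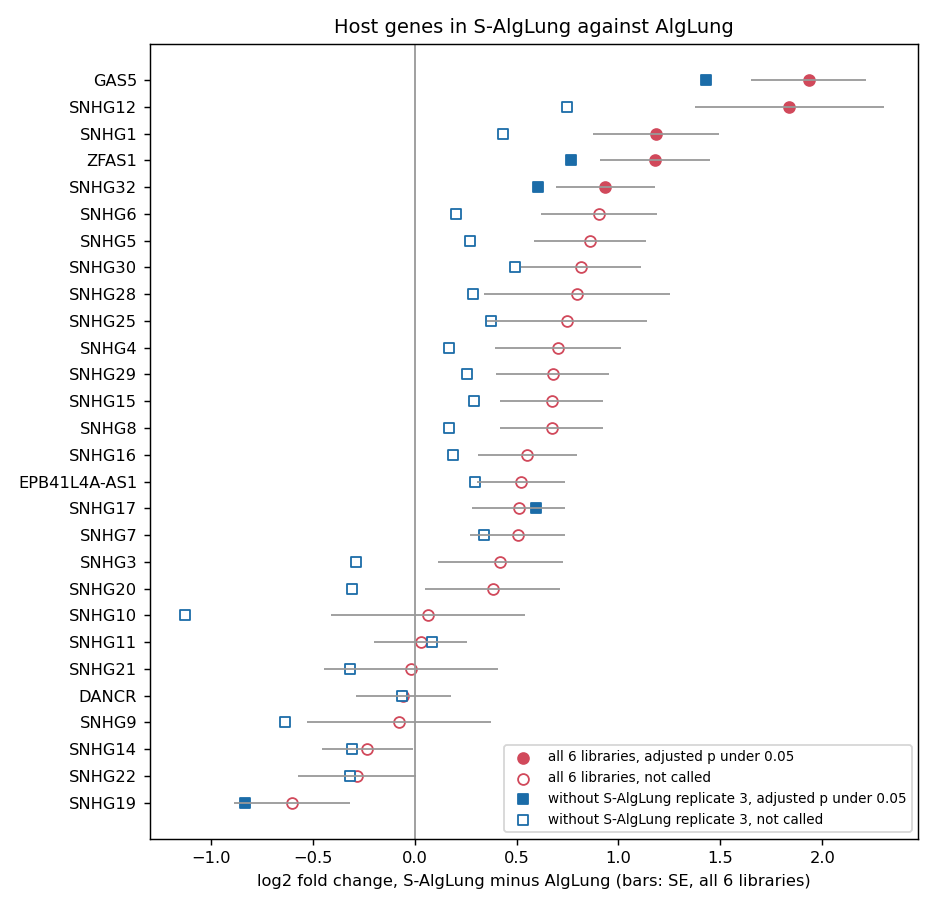
Log2 fold change of the 28 tested host genes, S-AlgLung minus AlgLung, with all 6 libraries (red circles, bars are the SE) and without S-AlgLung replicate 3 (blue squares). Filled symbols passed an adjusted p under 0.05: GAS5, ZFAS1 and SNHG32 are filled in both fits, SNHG12 and SNHG1 only with replicate 3, and SNHG17 and SNHG19 only without it.

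In S-AlgLung replicate 3 the host genes stood well above the other S-AlgLung libraries. In this library 20 of 28 tested members were more than 1.5-fold above the mean of S-AlgLung replicates 1 and 2, against 16.0% of all tested genes, and 0 were more than 1.5-fold below it, against 15.9%. Past 2-fold there were 12 and 0 members, against 4.52% and 5.47% of all genes. The comparison sets 1 library against a pair, so it has no test. The median ratio was 1.86 over the members and 1.04 over all genes, and the members ran from 0.763 in SNHG17 to 4.54 in SNHG10. In 22 of 28 members this library was above all 5 others, against 29.0% of all genes, and in 0 below all 5, against 21.3%. With total counts as the scaling 23 members were past 1.5-fold higher, when 32.5% of all genes were and the median of all genes was 1.26. With DESeq2 size factors 20 were, against 14.0% of all genes. When each of the other 5 libraries was set against the rest of its hydrogel, at most 3 members were past 1.5-fold higher. These were 2, 3 and 0 in AlgLung replicates 1 to 3 (7.41%, 4.34% and 2.91% of all genes). For S-AlgLung replicates 1 and 2 the numbers were 1 and 0 (8.35% and 5.29%), against a reference that includes the high replicate 3. Past 1.5-fold lower were 5, 1 and 3 members in AlgLung replicates 1 to 3 (7.26%, 9.64% and 4.40% of all genes). In S-AlgLung replicates 1 and 2, whose reference includes replicate 3, they were 10 and 16 (8.13% and 12.4%).

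The highest ratios belonged to hosts of both guide classes and of small Cajal body RNAs. SNHG10, the host of a small Cajal body RNA on chromosome 14, was at 0.680, 0.338 and 2.31 CPM in S-AlgLung and at 1.38, 1.08 and 0.786 CPM in AlgLung. Its ratio of 4.54 rests on low levels, and S-AlgLung replicates 1 and 2 lay below every AlgLung library. SNHG12 followed at 4.15 and SNHG1 at 2.93. SNHG6 stood 2.78 times higher in replicate 3, and SNHG5 2.42 times. SNHG3, the host of SNORA73A and SNORA73B, was at 7.53, 6.16 and 18.9 CPM in S-AlgLung and at 7.05, 10.8 and 6.66 CPM in AlgLung, a ratio of 2.77. SNHG20 was at 2.36, 2.83 and 7.04 CPM in S-AlgLung and at 2.80, 3.64 and 3.02 CPM in AlgLung, a ratio of 2.71. For both, S-AlgLung replicates 1 and 2 lay within or below the AlgLung range, so the log2 fold changes of 0.42 and 0.38 went to -0.29 and -0.31 without replicate 3. SNHG9, at 0.997, 0.338 and 1.49 CPM in S-AlgLung and 0.575, 1.30 and 1.16 CPM in AlgLung, had a ratio of 2.24.

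GAS5 had a ratio of 2.17, SNHG29 of 1.93, ZFAS1 of 1.91 and SNHG32 of 1.69. Just past the threshold was SNHG21 at 1.56, and just short of it were EPB41L4A-AS1 at 1.44 and SNHG19 at 1.43. SNHG7 at 1.28, SNHG14 at 1.08, SNHG22 at 1.01 and DANCR at 0.951 lay near the level of the other S-AlgLung libraries. SNHG11 at 0.821 and SNHG17 at 0.763 were the lowest. These lie near each other on chromosome 20, SNHG17 at 38419638 to 38435409 on the minus strand and SNHG11 at 38446343 to 38450940 on the plus strand. SNHG3 and SNHG12 likewise lie near each other on chromosome 1, at 28505980 to 28510892 and 28578538 to 28583132, and both were among the 5 highest ratios.

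**Figure D3:**
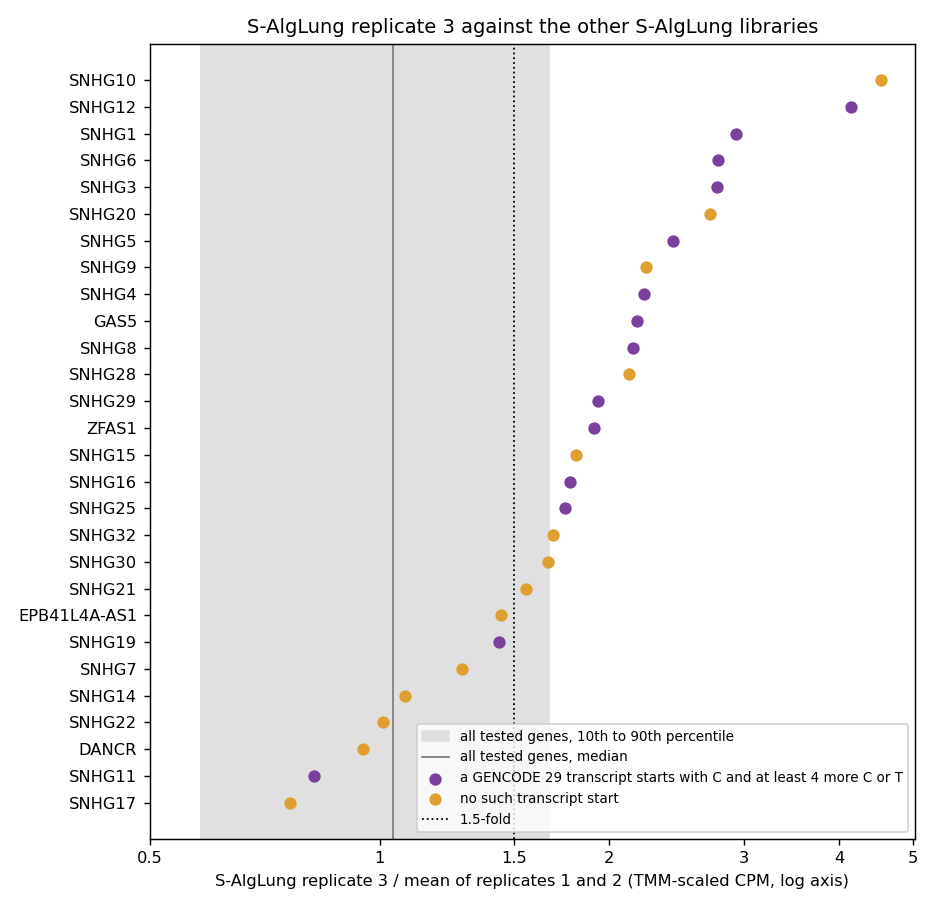
Ratio of S-AlgLung replicate 3 to the mean of S-AlgLung replicates 1 and 2 for each tested host gene (TMM-scaled CPM, log axis), coloured by whether a GENCODE 29 transcript starts with a TOP-type tract. The grey band spans the 10th to 90th percentile of all tested genes and the grey line is their median of 1.04; 20 host genes lie right of the dotted line at 1.5-fold.

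The type of RNA start was compared between members. A TOP-type start was present in at least 1 GENCODE 29 transcript of 15 of 32 members and in 14 of the 28 tested, against 14.6% of the 17835 tested genes with a transcript there and 66 of 79 cytosolic ribosomal protein genes (83.5%). Members have many listed transcripts, and per transcript the shares were 13.1% in the members, 2.64% in all tested genes and 20.4% in ribosomal protein genes. The 14 tested members with such a start had ratios of S-AlgLung replicate 3 from 0.821 to 4.15 with a median of 2.16, and 12 of them were past 1.5-fold. The 14 without ran from 0.763 to 4.54 with a median of 1.61, and 8 of them were past 1.5-fold. Among all tested genes 16.0% were past 1.5-fold higher. Both sets thus spanned nearly the same range: SNHG10, with no such start, had the highest ratio and SNHG11, with one, the second lowest. The median log2 fold change between hydrogels was 0.73 with and 0.44 without a TOP-type start, and 0.23 and 0.11 when S-AlgLung replicate 3 was left out. In RefSeq's windows, which run from 250 bases before a gene's start for 300 bases (GRCh38.p14, 28 members matched), a TOP-type tract stood at the start itself in 7 members, against 4.07% of 35116 windows. SNHG32 was among these 7 and SNHG1 was not, the reverse of how both are counted in the GENCODE sets above. Of other motifs, searched on both strands, CACGTG was in the windows of SNHG7 and SNHG30 (2 of 28, against 7.26% of windows). TGACGTCA and TGANTCA were each in 0 of 28, against 1.85% and 7.71% of windows.

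The class of guide was compared as well, by the guide rows inside each host. GAS5 and SNHG28, where no row with a guide symbol was found, and SNHG12 and SNHG25, with guides of both classes, are outside the classes below. The classes are therefore incomplete. Past 1.5-fold higher in S-AlgLung replicate 3 were 16.0% of all tested genes. Of the 10 tested hosts of C/D box guides alone, 8 were, with a median ratio of 1.84. Of the 10 hosts of H/ACA box guides alone, 5 were, with a median of 1.63. Of the 4 hosts of small Cajal body RNAs (SNHG10, SNHG20, SNHG21 and SNHG22) 3 were, with a median of 2.13. Between hydrogels the median log2 fold change was 0.84 in the C/D box hosts, 0.51 in the H/ACA box hosts and 0.02 in the Cajal body hosts. Without S-AlgLung replicate 3 these medians were 0.26, 0.17 and -0.32. The ranges overlapped, from 1.08 to 2.93 in C/D box hosts and from 0.763 to 2.77 in H/ACA box hosts.

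The table also has rows for the guides themselves, and reads in these rows were more frequent in S-AlgLung replicate 3. Library preparation that selects longer RNA recovers few mature snoRNAs, and reads at a guide can come from unspliced host RNA. Which RNA these reads come from was not tested. Over the 553 snoRNA and small Cajal body RNA rows of the table, 283 had any count, and their summed counts were 2199, 2135 and 2168 in AlgLung and 2318, 2224 and 6350 in S-AlgLung. Only replicate 3 of S-AlgLung stood apart, at 2.27 times the mean CPM of the other S-AlgLung libraries. Over the 138 rows inside members the sums were 1200, 1233 and 1274 in AlgLung and 1257, 1217 and 2913 in S-AlgLung. Most of these reads were at SNORD49B in SNHG29, with 7444 counts in all libraries. Without SNORD49B, SNORD104 and the guides of SNHG14 the sums were 90, 82 and 93 in AlgLung and 119, 70 and 543 in S-AlgLung, which put replicate 3 at 4.62 times the others by CPM.

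Host by host, the guides of SNHG1 had 19, 16 and 20 counts in AlgLung and 18, 16 and 142 in S-AlgLung. This was a ratio of 6.76 in CPM for replicate 3, against 2.93 for the SNHG1 row. All 7 of these guides overlap the exon model of SNHG1, as do most guides of ZFAS1, SNHG32, SNHG12 and SNHG7 in their hosts. The rows of these hosts and guides can therefore share reads. SNORA17B in SNHG7 has overlapping rows with equal counts, each with 2, 0 and 3 in AlgLung and 5, 4 and 20 in S-AlgLung. Reads there were thus counted in each overlapping row, and guide counts cannot be read as independent of host counts. The 3 guides of ZFAS1 had 0, 5 and 2 counts in AlgLung and 6, 5 and 54 in S-AlgLung. SNORD48 and SNORD52 in SNHG32 had 6, 7 and 2 counts in AlgLung and 5, 3 and 37 in S-AlgLung. In each of these 3 hosts S-AlgLung replicates 1 and 2 were close to the AlgLung counts and replicate 3 alone was high. The guides of SNHG12 had 7, 3 and 4 counts in AlgLung and 18, 5 and 65 in S-AlgLung, and those of SNHG7 had 5, 3 and 9 and 13, 5 and 57. Guides in SNHG14, a host near the level of the other libraries in replicate 3, had 81, 29 and 35 counts in AlgLung and 45, 35 and 32 in S-AlgLung. Those in SNHG11 had 12, 19 and 15 counts and 19, 13 and 15. The order of the hosts by their own ratio was therefore not always that of their guides: SNHG7 had a ratio of 1.28 and its guides one of 5.06. Among all guide rows 22 passed the low-count filter, and 3 of these lie inside members: SNORD49B, SNORD104 and SNORA71E, of which 0 were called (adjusted p = 0.549, 0.217 and 0.989). Outside the members 5 guide rows were called higher and 0 lower, against 3.15% and 1.99% of all genes, and 2 of the 5, SNORA7A and SNORD32A, were also called without S-AlgLung replicate 3. Over the 22 rows 8 were higher and 0 lower at an unadjusted p under 0.05, DESeq2 called 4 and 0, and limma-voom 2 and 0. SNHG25 had 80, 39 and 30 counts in AlgLung and 95, 27 and 134 in S-AlgLung, and SNORD104, in its intron, had 71, 37 and 24 and 101, 28 and 135. What the pair shares was not tested.

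**Figure D4:**
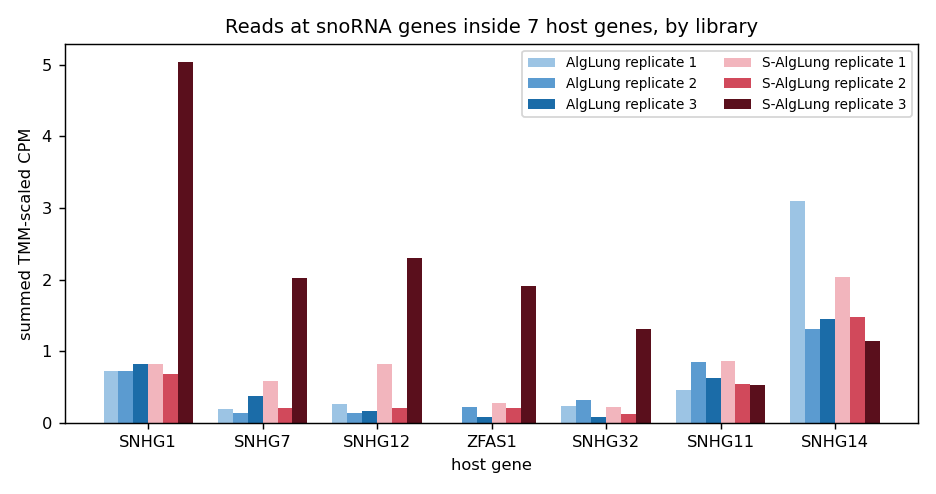
Summed TMM-scaled CPM of the guide rows inside 7 host genes in each of the 6 libraries, 1 bar a library. The darkest red bar, S-AlgLung replicate 3, is the tallest for SNHG1, SNHG7, SNHG12, ZFAS1 and SNHG32, and the shortest for SNHG14.

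Gene groups related to the hosts by function were counted in the same fit. Of 79 cytosolic ribosomal protein genes, the other large set of TOP RNAs, 11 rose and 0 fell, against 3.15% and 1.99% of all genes. Their median log2 fold change was 0.30, and 0.24 without S-AlgLung replicate 3. In that fit 6 were called higher, against 4.75% of all genes. DESeq2 called 9 higher and limma-voom 2. In S-AlgLung replicate 3, 26 of the 79 were past 1.5-fold higher and 13 past 1.5-fold lower, against 16.0% and 15.9% of all genes. The smallest p-values were those of RPL36A (log2 fold change 1.26, adjusted p = 0.00296), RPL39 (1.18, adjusted p = 0.00703), RPL31 (1.17, adjusted p = 0.0183) and RPS3A (1.12, adjusted p = 0.0227). RPL31 was at 133, 132 and 125 CPM in AlgLung and at 162, 217 and 497 CPM in S-AlgLung, and leaving out S-AlgLung replicate 3 ended its call (0.51, adjusted p = 0.128). RPS3A was at 183, 149 and 172 CPM in AlgLung and at 166, 430.1 and 502 CPM in S-AlgLung, so that here S-AlgLung replicate 2 was high as well, and without replicate 3 its log2 fold change was 0.81 (adjusted p = 0.00649). Ribosomal protein genes have many processed copies in the genome, and no source used here says how the counting treated reads that match several. Without AlgLung replicate 1 the adjusted p was 0.1299 for RPL39, 0.125 for RPL31 and 0.115 for RPS3A. Without AlgLung replicate 2 it was 0.156 for RPL31 and 0.205 for RPS3A, and without AlgLung replicate 3 it was 0.0711, 0.0776 and 0.0805 for RPL39, RPL31 and RPS3A.

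In 6 further lists edgeR called 0 genes in either direction, and DESeq2 and limma-voom also called 0. Over all genes edgeR called 3.15% higher and 1.99% lower, and 9.10% and 5.81% were at an unadjusted p under 0.05. Of 18 other TOP messages, chiefly translation factors, 1 was higher and 0 lower at an unadjusted p under 0.05. That was EEF1B2, an elongation factor subunit whose gene hosts snoRNAs (0.71, adjusted p = 0.1603), and it passed without S-AlgLung replicate 1 (0.99, adjusted p = 0.0370). TPT1, a TOP message for a tumour protein, was at 720, 824 and 746 CPM in AlgLung and at 722, 711 and 1779 CPM in S-AlgLung (0.49, adjusted p = 0.518), so its high value was in replicate 3 alone. Of 32 protein-coding snoRNA hosts outside the ribosome 1 was higher, EEF1B2 again, and 1 lower, CCAR1 (-0.59, adjusted p = 0.145), at an unadjusted p under 0.05. Their median ratio in S-AlgLung replicate 3 was 1.04, against 1.86 in the members and 1.04 over all genes. Past 1.5-fold there were 5 higher and 2 lower, against 16.0% and 15.9% of all genes. Of 18 proteins of the snoRNA particle and its assembly, none reached an unadjusted p under 0.05 (0 and 0). NOP58, a core protein of C/D box particles, had a log2 fold change of -0.44 and ZNHIT3, an assembly factor, of 0.29.

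Of 15 factors of nonsense-mediated decay, which breaks down many host RNAs, 0 were higher and 1 lower at an unadjusted p under 0.05. That was UPF2, which bridges the decay complex, at 20.5, 12.7 and 17.4 CPM in AlgLung and 10.5, 12.5 and 9.42 CPM in S-AlgLung (-0.65, adjusted p = 0.119). UPF3B had -0.39 (adjusted p = 0.601). None of the 15 was past 1.5-fold in S-AlgLung replicate 3 in either direction (0 and 0, against 16.0% and 15.9% of all genes). Of 12 regulators of TOP translation, such as MTOR and LARP1, 0 were higher and 1 lower at that unadjusted threshold, LARP4 (-0.51, adjusted p = 0.263). EIF4EBP2, a translation repressor, had 0.25. Of 20 ribosome biogenesis genes, 0 were higher and 0 lower, with RRN3, a factor of RNA polymerase I, at -0.30 and the helicase DDX21 at -0.30. Among 6 abundant long noncoding RNAs, MALAT1 was at 11.0, 8.90 and 10.1 CPM in AlgLung and at 13.2, 8.11 and 49.2 CPM in S-AlgLung. It was called higher (1.24, adjusted p = 0.0475), and its log2 fold change without S-AlgLung replicate 3 was 0.06 (adjusted p = 0.915). It also missed the threshold without AlgLung replicate 1 (adjusted p = 0.180) or 2 (adjusted p = 0.309), and with DESeq2 (adjusted p = 0.507).

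Of the marker lists, the keratin gene KRT7 fell, from 565, 762 and 626 CPM in AlgLung to 235, 327 and 160.3 CPM in S-AlgLung (-1.43, adjusted p = 0.00124, and -1.24 without S-AlgLung replicate 3). The monocyte marker CD14 was at 30.3, 37.5 and 30.5 CPM in AlgLung and at 64.7, 69.7 and 42.8 CPM in S-AlgLung (0.85, adjusted p = 0.0225). Its call was lost without AlgLung replicate 1, 2 or 3 (adjusted p = 0.192, 0.06995 and 0.246) and without S-AlgLung replicate 1 or 2 (adjusted p = 0.101 and 0.0961), and held without S-AlgLung replicate 3 (1.01, adjusted p = 4.757e-05). The level of CD14 was lowest in replicate 3 among the S-AlgLung libraries, unlike that of most host genes, though SNHG11, SNHG17 and DANCR were also lowest there. The leukocyte list summed to 32.9 to 37.8 CPM in AlgLung and 48.8 to 64.7 CPM in S-AlgLung. The fibroblast list summed to 7.44 to 7.90 and 6.11 to 9.83 CPM and the endothelial list to 2.26 to 3.84 and 2.72 to 4.12 CPM, with 0 of the tested genes in either called by edgeR, DESeq2 or limma-voom. At an unadjusted p under 0.05 there were 0 such fibroblast genes, and 1 endothelial gene, PECAM1, was higher (0.79). All libraries come from a single line, and bulk RNA does not tell how the level of a marker was spread over its cells.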

How the data were processed

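A service provider made the RNA sequencing libraries of A549 cells from total RNA extracted with TRIzol and a column, per the labels' protocols. The authors used STAR 2.7.3a for alignment to GRCh38 and featureCounts for counting, per the submitters' processing notes. No source used here gives the annotation, the strand setting or the treatment of reads that match several genes. The authors deposited raw counts, whole numbers of reads for each gene. The 2 columns of AlgLung replicate 1 differed in 0 genes and were counted as 1 sample. Of 62703 gene IDs, 62625 were found in the gene name table, and 42300 rows carried a symbol. Exon models, positions and lengths are those in the deposited table. Host and guide rows can share reads. Of the 28 tested members, 20 share exon bases with a gene holding 25% or more of their own counts, 10 of them with one on the same strand, which makes their values uncertain. Values are given for only a few of these overlapping genes.

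Genes were kept with filterByExpr (minimum count 10) and scaled by TMM. The F test of edgeR 4.0.16 (quasi-likelihood, in R 4.3.3) was fitted over all 6 libraries with no block. Benjamini-Hochberg adjustment ran over every tested gene, and a call needed an adjusted p under 0.05. The standard error of a log2 fold change was taken as its size over the square root of F. S-AlgLung replicate 3 was divided by the mean of replicates 1 and 2 in TMM-scaled CPM, without a test. Depth was 22978408 to 26495444 counts a library, so members under about 1 CPM have the lowest precision. Transcript starts came from GENCODE 29, and start windows from RefSeq's table (GRCh38.p14).

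Named were every called member, the 4 genes chosen by symbol, the 6 other tested members with the highest mean CPM, up to 8 with the largest ratio in S-AlgLung replicate 3, and from each related list up to 4 called genes with the smallest p or up to 2 where none was called. SNHG11, SNHG14, SNHG18, SNHG19, SNHG21, SNHG22, SNHG25, SNHG26 to SNHG28, SNHG30, SNHG31, GAS5-AS1, the guides and the overlapping genes were named after their values were seen. The members and lists were chosen with earlier results of these data known. Alternatives in scaling were DESeq2 size factors, upper-quartile factors and total counts. Alternatives in testing were limma-voom (limma 3.58.1), DESeq2 1.42.0 with its Wald test, a block on replicate number and an adjusted p under 0.01. Others were no filter on low counts, a mean CPM of 1 or more, leaving out every library in turn, and leaving out mitochondrial genes, ribosomal protein genes and the 20 genes with most counts. For S-AlgLung replicate 3 they were 2-fold and the mean of the other 5 libraries. Each of S-AlgLung replicates 1 and 2 alone as the reference, and each other library against the rest of its hydrogel, were added after seeing the data.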

Additional observations from a re-analysis of the deposited data

How the results depend on the processing

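Of 418 values of members under alternative settings, 370 kept their direction and their side of the threshold, 16 newly passed it, 15 no longer passed it and 17 changed sign. The number of members called, 5, was 2 with total counts, 3 with limma-voom and 2 at an adjusted p under 0.01. It ran from 2 to 11 with 1 library left out: 2 without AlgLung replicate 1, 2 without AlgLung replicate 2 and 11 without S-AlgLung replicate 2. Apart from the fit without S-AlgLung replicate 3, the share of all genes called was not taken under alternative settings. These numbers of called members therefore have no background beside them. The number past 1.5-fold in S-AlgLung replicate 3, 20, was 12 past 2-fold, and 18 to 20 with either other S-AlgLung library alone as the reference. The labels do not say that replicate numbers pair the libraries, and correlations among 3 libraries a group cannot decide it. Deviations from the group means correlated at 0.072, 0.29 and 0.041 between same-numbered libraries. S-AlgLung replicates 1 and 2 correlated best with the AlgLung library of the same number, and replicate 3 with AlgLung replicate 1, at 0.21. A fit with the replicate number as a block called 7 members. Some log2 fold changes turned in sign when 1 library was left out. Over these fits they ran from -0.29 to 0.70 in SNHG3, -0.31 to 0.65 in SNHG20, -0.33 to 0.13 in DANCR, -0.63 to 0.31 in SNHG9, -1.13 to 0.48 in SNHG10, -0.16 to 0.12 in SNHG11 and -0.32 to 0.36 in SNHG21. Outside the members they ran from -0.12 to 0.71 in TPT1 and -0.021 to 0.42 in ZNHIT3. The lowest values of SNHG3, SNHG20, SNHG9, SNHG10, TPT1 and ZNHIT3 were those without S-AlgLung replicate 3. SNHG10 was also at -0.31 with limma-voom and -0.22 with the replicate block, and SNHG11 at -0.074 with total counts and -0.0049 with upper-quartile factors. The causes of these changes were not tested. Members under about 1 CPM, such as SNHG9 and SNHG28, are limited by depth.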
